A study of Mus musculus with 12 samples.

Results

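The genes described here, Spo11, Mei1, Mei4, Ankrd31, Dmc1, Meiob, Spata22, Tex15, Msh4 and Msh5, act when meiotic cells break their chromosomes and begin to repair the breaks. They were taken by symbol from the deposited count table, as 10 of its 35976 gene rows with no threshold on their measured values. The set was chosen with earlier results of these data known. RNA was sequenced from primordial germ cells, which give rise to eggs and sperm, sorted from female embryos of mice at E14.5. The 12 libraries, each from 5000 cells picked out by an Oct4-GFP reporter, comprised 3 of genotype Tet1HxD/HxD (HxD, catalytically dead TET1), 3 of genotype Tet1-/- (KO), 3 of genotype Tet1V/V (V, a form that stalls at 5-hydroxymethylcytosine) and 3 wild-type libraries (WT). TET1 is an enzyme that oxidizes 5-methylcytosine in DNA. No treatment or strain is given in the labels, and no tissue-specific driver is named, so the mutations are described only as genotypes of the embryos. The labels name no embryo or litter for any library, so the spread that the p-values are set against may be technical.

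Meiotic recombination starts with programmed double-strand breaks, made by the topoisomerase-like protein SPO11 with the help of accessory proteins that sit on the chromosome axis. The broken ends are trimmed to single strands, coated by protective proteins and used by recombinases to invade the homologous chromosome, and some of the joint molecules are then stabilized and become crossovers. In the mouse ovary, germ cells enter meiosis in midgestation, before birth, and this stage of sorting falls early in that process.

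Total counts ranged from 18471158 to 29495313 per library, and replicates differed by far more than sampling noise (chi-square of 29.9 or more for each degree of freedom). The libraries captured rare transcripts unequally. Of 2938 genes with a low mean level, 43.7% were at 0 in HxD1, 27.3% in KO1, 45.9% in KO3 and 24.5% in V2, against 13.2% to 20.8% in the WT libraries. The other mutant libraries had 1.80% to 9.94% of these genes at 0. Summed over 6 germ-cell markers the level was 2635 to 3776 CPM (counts scaled by library size with TMM factors), against 8.001 to 59.6 CPM for 22 markers of gonadal somatic, stromal, endothelial and blood cells, and WT1 had the highest sum of both. The germ-cell markers did not move one way. Dazl averaged 753 ± 128 CPM in HxD, 719 ± 120 CPM in KO, 686 ± 115 CPM in V and 1598 ± 363 CPM in WT (SD, n = 3 each), and Ddx4 averaged 474, 442, 422 and 662 CPM in the same order of groups. Pou5f1 averaged 450 ± 99.3 CPM in HxD, 460 ± 141 CPM in KO, 546 ± 184 CPM in V and 248 ± 61.2 CPM in WT (SD, n = 3 each), and Dnd1 averaged 246, 254, 268 and 155 CPM. The remaining markers averaged higher in each mutant group than in WT, with overlapping libraries. Dppa3 averaged 441, 497, 531 and 382 CPM in HxD, KO, V and WT, and Kit 513, 591, 484 and 412 CPM. All mutant libraries lay below WT for Dazl and above WT for Pou5f1 and Dnd1. The part of these shifts in the differences of the 10 genes was not tested. Tet1, the mutated gene, had 227, 222 and 286 CPM in HxD, 131, 158 and 80.8 CPM in KO, 226, 197 and 192 CPM in V, and 91.4, 180 and 215 CPM in WT. Its KO and WT ranges overlapped (log2 fold change -0.40 ± 0.24, edgeR quasi-likelihood test, Benjamini-Hochberg adjusted p = 0.484). The labels do not say which part of Tet1 the knockout removes, so the level of its RNA does not check the KO label.

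The 10 genes had lower fitted levels in each mutant group than in WT, but few of them passed the test on their own. Dmc1, the meiosis-specific recombinase, fell in KO, and Tex15, a gene needed for repair of meiotic breaks in male mice, fell in V. Both fell when the mean of the 3 mutant groups was set against WT. With edgeR and adjustment over all 16166 genes tested, 0 of the 10 genes passed in HxD, 1 in KO, 1 in V and 2 for the mean of the mutants. Lower calls over all genes made up 0.0247% in HxD, 0.495% in KO, 0.0866% in V and 0.637% for the mean of the mutants. An unadjusted edgeR p under 0.05 was found for 4 of the 10 in HxD, 7 in KO, 3 in V and 7 for the mean of the mutants, beside 1172, 2138, 1567 and 2129 of all 16166 genes. Of the 10 genes, DESeq2 called 1 in HxD, 4 in KO, 2 in V and 4 for the mean of the mutants, and limma-voom 0, 3, 1 and 4. Of all 16166 genes, in either direction, DESeq2 called 63, 487, 149 and 454 and limma-voom 15, 187, 20 and 346. All 10 genes passed the filter on low counts, each with at least 5 mutant libraries past its cutoff, so none was kept only by the WT libraries.

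The size of the differences varied from gene to gene. The median log2 fold change of the 10 genes was -1.06 in HxD, -1.92 in KO, -1.06 in V and -1.23 for the mean of the mutants, beside medians of all genes of -0.01, -0.02, 0 and -0.03 in the same order of comparisons. All 10 fitted values lay below 0 in HxD, where 50.5% of all genes did, in KO (51.1% of all genes) and in V (50% of all genes). The 3 comparisons share the same WT libraries and are not independent. The 3 mutant libraries lay below all 3 WT libraries for 5 of the 10 genes in HxD, 6 in KO and 4 in V, against 5.77%, 8.36% and 7.48% of all genes in those comparisons. All 9 mutant libraries lay below the 3 WT libraries for Dmc1, Tex15, Mei1 and Spata22, that is for 4 of 10 genes, against 2.05% of all genes. Because the 10 genes were chosen with earlier results of these data known, the shares of all genes are a description and no test. In sorted bulk RNA, fewer cells that express a gene and less RNA of it per cell cannot be told apart.

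**Figure D1:**
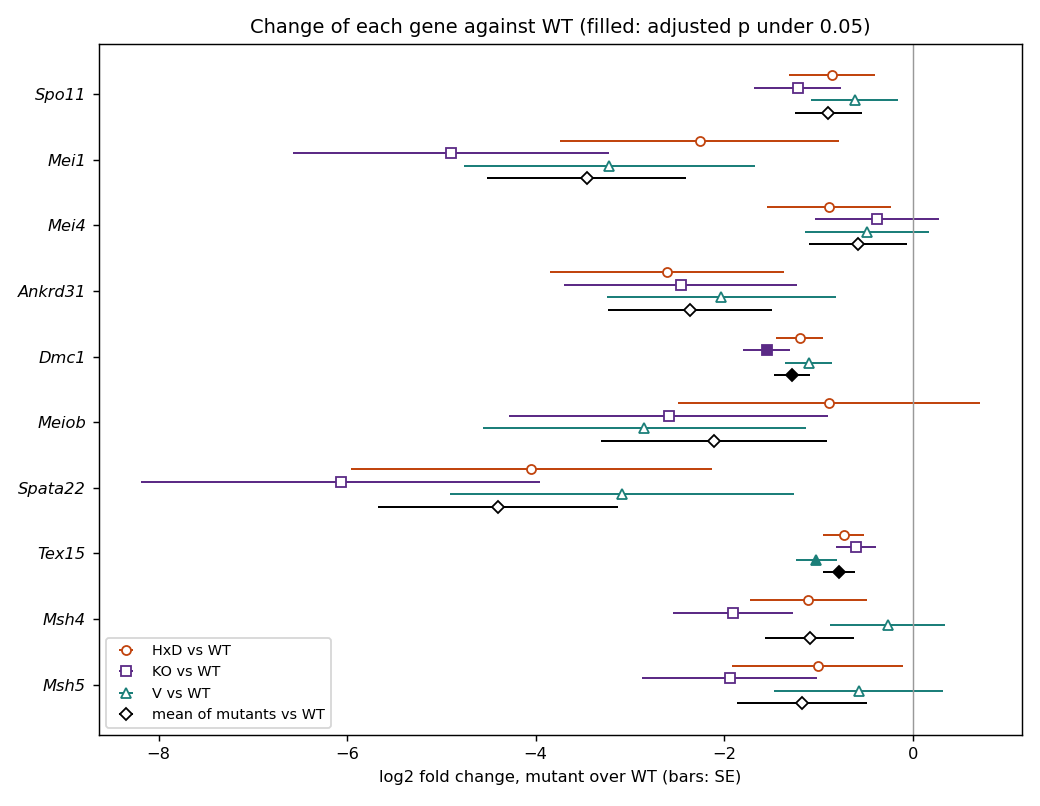
Log2 fold change of each of the 10 genes, mutant over WT, with bars showing the standard error; filled symbols mark an adjusted p under 0.05 (edgeR). All points lie left of 0, the 4 filled ones belong to Dmc1 (KO, and the mean of the mutants) and Tex15 (V, and the mean of the mutants), and the bars of Mei1, Meiob, Spata22 and Ankrd31 are the widest.

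Among the genes that make the breaks, Spo11 encodes the catalytic subunit. It had 5.11, 13.2 and 34.6 CPM in HxD, 14.95, 14.45 and 11.6 CPM in KO, 19.99, 23.9 and 18.4 CPM in V, and 41.2, 23.9 and 30.4 CPM in WT. The KO libraries were all below the WT libraries and close to each other. HxD spread the most, with HxD3 above WT2 and WT3, and V2 touched the lowest WT library. The log2 fold changes were -0.85 ± 0.46 in HxD, -1.22 ± 0.46 in KO and -0.62 ± 0.46 in V, and none passed (edgeR, adjusted p = 0.726, 0.226 and 0.731).

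Mei1, a gene required for break formation in mice, separated all mutant libraries from WT. Its level was 5.25, 0.417 and 1.34 CPM in HxD, 0, 1.12 and 0 CPM in KO, 0.168, 0.664 and 2.76 CPM in V, and 14.9, 6.99 and 11.8 CPM in WT. Every mutant library was below every WT library, and KO1 and KO3, which captured few rare transcripts, were at 0. A count of 0 allowed up to 0.114 CPM in KO1 and 0.132 CPM in KO3, the level of 3 counts, and these limits cover counting error only. The fitted log2 fold changes of -2.26 ± 1.48 in HxD, -4.90 ± 1.68 in KO and -3.22 ± 1.54 in V did not pass with edgeR (adjusted p = 0.810, 0.167 and 0.505). DESeq2 and limma-voom both called Mei1 in KO (adjusted p = 0.0172 and 0.0380). HxD1, KO1 and KO3 were also left out, an alternative added after the data were seen. The 6 remaining mutant libraries had at most 2.76 CPM of Mei1 and the lowest WT library 6.99 CPM. Since every mutant library lay below WT, any part of them must too, so this is no further check.

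Mei4 and Ankrd31 act with REC114 in the complexes that assemble on the axis before breaks are made. Mei4 had 8.18, 4.96 and 5.04 CPM in HxD, 9.77, 8.07 and 8.06 CPM in KO, 2.98, 10.8 and 10.3 CPM in V, and 12.6, 14.9 and 6.13 CPM in WT. WT3 lay inside the HxD and V ranges and below all KO libraries, and Mei4 had the smallest difference of the 10 genes in KO (log2 fold change -0.38 ± 0.66, edgeR, adjusted p = 0.868). Ankrd31 had 0.564, 3.29 and 2.91 CPM in HxD, 4.73, 2.24 and 0.484 CPM in KO, 0, 4.48 and 5.56 CPM in V, and 25.1, 13.04 and 2.99 CPM in WT. Its WT libraries differed by 8.41-fold, and WT3 overlapped every mutant group. The fitted log2 fold changes of Ankrd31 were -2.60 ± 1.24 in HxD, -2.46 ± 1.24 in KO and -2.03 ± 1.21 in V, and none passed (edgeR, adjusted p = 0.685, 0.389 and 0.621).

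**Figure D2:**
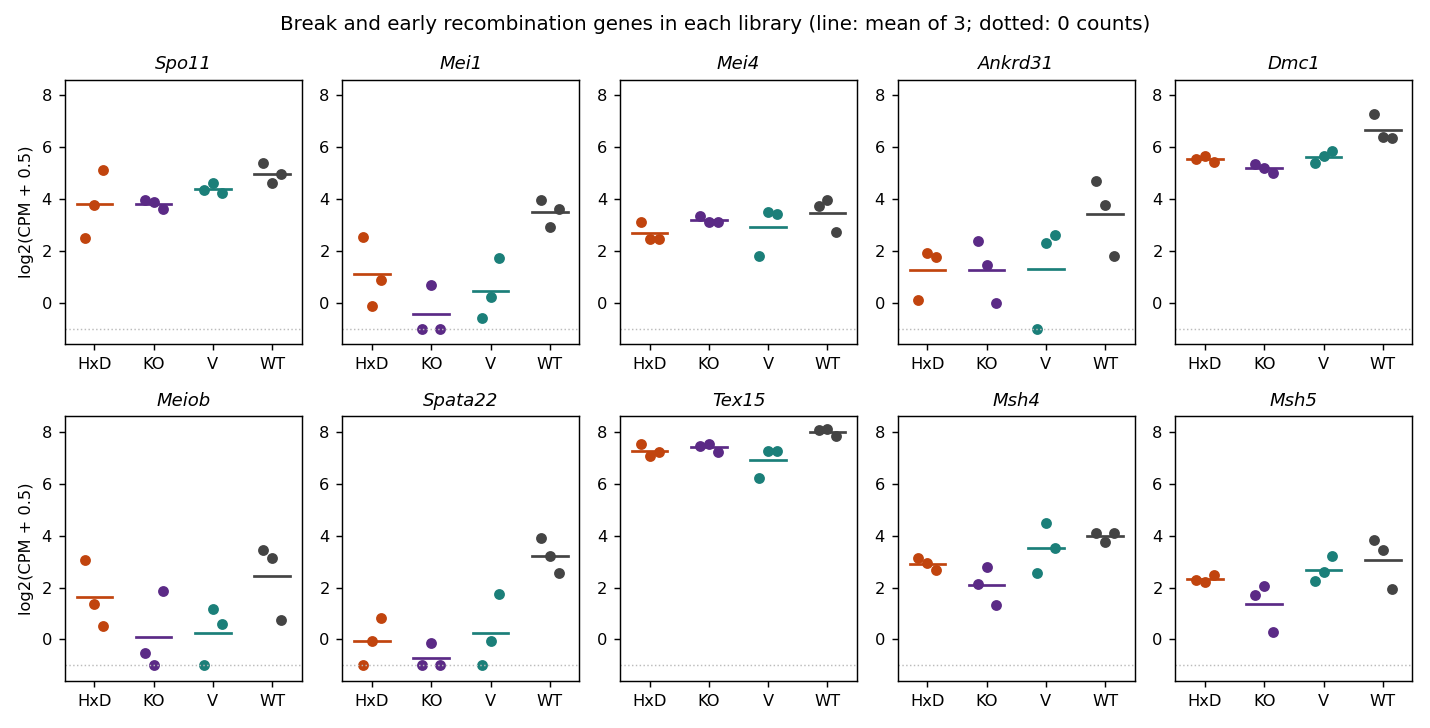
Level of each of the 10 genes in every library, as log2 of CPM plus 0.5, by group, with a line at the mean of the 3 libraries and a dotted line at 0 counts. Dmc1, Tex15, Mei1 and Spata22 have all 9 mutant libraries below the 3 WT libraries, and Mei1, Ankrd31, Meiob and Spata22 have mutant libraries at 0.

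Among the genes of strand exchange, Dmc1 encodes the recombinase that pairs a broken end with the homologous chromosome. It had 46.5, 50.01 and 42.2 CPM in HxD, 40.7, 36.3 and 31.8 CPM in KO, 41.2, 49.8 and 57.5 CPM in V, and 156, 82.5 and 80.3 CPM in WT. The 9 mutant libraries stayed within 31.8 to 57.5 CPM, all below the lowest WT library, while WT1 was 1.94 times WT3. Dmc1 was therefore 2.30-fold lower in HxD, 2.93-fold lower in KO and 2.14-fold lower in V by the fit. The log2 fold change of -1.55 ± 0.25 in KO passed (edgeR, adjusted p = 0.00162), and those of -1.20 ± 0.25 in HxD and -1.10 ± 0.25 in V did not (adjusted p = 0.0838 and 0.0592). DESeq2 called Dmc1 in HxD and V as well (adjusted p = 0.00563 and 0.0124) and limma-voom did not (0.0803 and 0.0908), and it passed under 4 of 20 alternatives in HxD and 6 of 20 in V. For the mean of the mutants it was -1.28 ± 0.19 (edgeR, adjusted p = 0.000278).

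Tex15 was the most abundant of the 10 genes by counts and had the narrowest range among the WT libraries, 1.22-fold. It had 184, 134 and 149 CPM in HxD, 176, 186 and 149 CPM in KO, 73.5, 152 and 155 CPM in V, and 269, 278 and 227 CPM in WT. All mutant libraries were below all WT libraries, and V1 was the lowest of the 12. The log2 fold change of -1.02 ± 0.22 in V passed (edgeR, adjusted p = 0.0486). Those of -0.73 ± 0.22 in HxD and -0.60 ± 0.22 in KO did not (adjusted p = 0.360 and 0.200). For the mean of the mutants it was -0.78 ± 0.17 (edgeR, adjusted p = 0.0170).

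Meiob and Spata22 encode partners that bind single-stranded DNA at processed breaks and keep the recombinases in place, and both were scarce. Spata22 had 0, 0.458 and 1.27 CPM in HxD, 0, 0.414 and 0 CPM in KO, 0, 0.465 and 2.90 CPM in V, and 14.7, 8.72 and 5.38 CPM in WT. The 9 mutant libraries were all below the 3 WT libraries, and 4 of them had no count, which allowed up to 0.106 CPM in HxD1, 0.114 CPM in KO1, 0.132 CPM in KO3 and 0.168 CPM in V1. These limits cover counting error only. Of the genes with a low mean level, 43.7% were at 0 in HxD1, 27.3% in KO1, 45.9% in KO3 and 9.94% in V1. The fitted log2 fold changes of -4.05 ± 1.91 in HxD, -6.07 ± 2.12 in KO and -3.08 ± 1.83 in V are set in part by those zeros and did not pass with edgeR (adjusted p = 0.685, 0.179 and 0.617). In KO, DESeq2 and limma-voom called Spata22 (adjusted p = 0.0155 and 0.0495).

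Meiob did not follow its partner in every library. It had 7.79, 2.08 and 0.933 CPM in HxD, 0.191, 0 and 3.13 CPM in KO, 0, 1.73 and 1.03 CPM in V, and 10.4, 8.40 and 1.20 CPM in WT. HxD1, which had no count of Spata22, had the highest Meiob level of the mutant libraries, and WT3 lay inside the range of all 3 mutant groups. HxD1 captured few rare transcripts, with 43.7% of the genes with a low mean level at 0. The part of this in the difference between the partners was not tested. The log2 fold changes were -0.89 ± 1.61 in HxD, -2.59 ± 1.69 in KO and -2.85 ± 1.71 in V, none of which passed (edgeR, adjusted p = 0.999, 0.522 and 0.623).

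Promoter sequences, from 250 bases before to 50 bases after the annotated start (RefSeq, build GRCm38.p6), were matched for 7 of the 10 genes, all but Spo11, Meiob and Tex15. They are shown because TET1 acts on methylated cytosines, which in mammals lie mostly in CG dinucleotides. No methylation was measured in these libraries. Printed are Dmc1, which passed the test, Spata22, which had the largest fitted differences in HxD and KO, and Msh5, which had the most CG dinucleotides of the 7, on the strand of the gene and with each CG in capitals. Dmc1 lies at chr15:79605060-79605359 on the minus strand, Spata22 at chr11:73329491-73329790 on the plus strand and Msh5 at chr17:35046573-35046872 on the minus strand.
Dmc1: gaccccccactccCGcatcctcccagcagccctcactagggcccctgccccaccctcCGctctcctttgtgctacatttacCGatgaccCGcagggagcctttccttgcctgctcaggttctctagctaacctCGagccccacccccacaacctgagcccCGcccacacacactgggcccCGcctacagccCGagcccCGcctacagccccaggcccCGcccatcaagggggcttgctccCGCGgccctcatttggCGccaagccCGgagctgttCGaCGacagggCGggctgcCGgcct
Spata22: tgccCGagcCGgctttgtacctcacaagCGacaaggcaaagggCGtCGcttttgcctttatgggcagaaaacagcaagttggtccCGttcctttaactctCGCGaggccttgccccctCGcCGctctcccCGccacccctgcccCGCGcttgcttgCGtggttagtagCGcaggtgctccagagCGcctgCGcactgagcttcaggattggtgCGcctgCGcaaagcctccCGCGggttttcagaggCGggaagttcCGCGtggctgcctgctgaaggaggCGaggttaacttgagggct
Msh5: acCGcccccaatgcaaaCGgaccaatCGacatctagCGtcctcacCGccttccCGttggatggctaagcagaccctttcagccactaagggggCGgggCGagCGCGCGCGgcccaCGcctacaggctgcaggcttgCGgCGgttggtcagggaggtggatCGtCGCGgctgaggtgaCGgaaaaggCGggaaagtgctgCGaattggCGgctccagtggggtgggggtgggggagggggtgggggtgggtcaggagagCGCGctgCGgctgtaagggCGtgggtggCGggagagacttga

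The 300 bases held 18 CG dinucleotides in Dmc1, 25 in Spata22 and 27 in Msh5, with 17 in Ankrd31 and 16 in Mei4. The share of all promoters with as many or fewer was 71.9% for Dmc1, 83.1% for Spata22, 85.8% for Msh5, 70.3% for Ankrd31 and 68.6% for Mei4. The windows of Mei1 and Msh4 held 8 and 6, beside a median of 7 over 32851 promoters, but their RefSeq starts lie 12480 and 1247 bases inside the genes as GENCODE M21 annotates them. Those of Msh5 and Ankrd31 lie 123 and 21 bases inside. The E-box CACGTG was in 0 of the 7 windows and in 7.15% of all promoters, searched on both strands. GCGGGAA, an E2F-type motif, was in 2 of the 7 and in 4.60% of all promoters on either strand. In Spata22 its first base lay 4 bases before the RefSeq start, so the match crossed that start. In Msh5 its first base lay 65 bases before the RefSeq start, inside the gene as GENCODE annotates it. With the E-box in none of the windows, no matches of the 2 motifs overlapped. A match is a description of the letters and not a bound site.

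Msh4 and Msh5 encode the subunits of a clamp that stabilizes the joint molecules from which crossovers arise. Msh4 had 8.39, 7.21 and 5.90 CPM in HxD, 3.89, 6.42 and 2.02 CPM in KO, 5.39, 22.2 and 10.9 CPM in V, and 16.6, 13.2 and 16.6 CPM in WT. HxD and KO lay below all WT libraries, whereas V2 had the highest level of the 12 libraries. The log2 fold changes were -1.11 ± 0.62 in HxD, -1.91 ± 0.63 in KO and -0.27 ± 0.61 in V, and none passed with edgeR (adjusted p = 0.736, 0.153 and 0.973). DESeq2 called Msh4 in KO (adjusted p = 0.0425), and without V1 the V value turned to 0.10.

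Msh5, the partner of Msh4, had 4.44, 4.17 and 5.11 CPM in HxD, 2.75, 3.73 and 0.704 CPM in KO, 4.27, 5.55 and 8.75 CPM in V, and 13.8, 10.5 and 3.31 CPM in WT. WT3 was below all HxD and V libraries and below KO2, so each mutant group overlapped WT, KO through KO2 alone. The log2 fold changes were -1.01 ± 0.90 in HxD, -1.94 ± 0.93 in KO and -0.57 ± 0.90 in V, with none past the threshold (edgeR, adjusted p = 0.949, 0.365 and 0.946). For both genes of the clamp, KO had the lowest mean and V the highest mean of the mutant groups.

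Levels were set side by side per length, as CPM per kilobase of exon, with exon lengths from GENCODE M21. In WT, Dmc1 had the highest level at 43.6 ± 17.7 CPM per kilobase (SD, n = 3), followed by Tex15 at 26.8 ± 2.81, a gap smaller than the SD of Dmc1. In KO the order of this pair was turned, with Tex15 at 17.7 ± 1.99 and Dmc1 at 14.9 ± 1.82 CPM per kilobase. Spo11 and Spata22 followed in WT at 8.12 ± 2.23 and 7.53 ± 3.69 CPM per kilobase and did not differ beyond their spread. The remaining 6 genes lay between 1.67 and 3.70 CPM per kilobase in WT, each within the spread of its neighbours. Spata22 shares 41 exonic bases with Gm49340 on the same strand and Msh4 overlaps Gm24395 on the opposite strand, and the labels do not say how reads in such stretches were counted.

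The calls of Dmc1 and Tex15 did not rest on the libraries in the same way. The Dmc1 call in KO was kept whichever of the 12 libraries was left out, and under 19 of 20 alternatives in all. It was lost when HxD1, KO1 and KO3 were removed together (log2 fold change -1.55, edgeR, adjusted p = 0.107), which leaves KO a lone library that the fit takes to vary as the other groups do. WT1 had the highest level of the 12 libraries for 7 of the 10 genes, and without it the Dmc1 log2 fold change was -0.82 in HxD, -1.17 in KO (edgeR, adjusted p = 0.0367) and -0.72 in V. For the mean of the mutants it was then -0.90 (edgeR, adjusted p = 0.0586), no longer under 0.05. The Tex15 call in V was lost without V1 (log2 fold change -0.75, edgeR, adjusted p = 0.387) and without any of HxD3, KO1, V3, WT1 and WT2 (adjusted p between 0.0512 and 0.196), and it was kept under 11 of 20 alternatives. The Tex15 call for the mean of the mutants was lost without WT1 or WT2 (edgeR, adjusted p = 0.126 and 0.118).

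**Figure D3:**
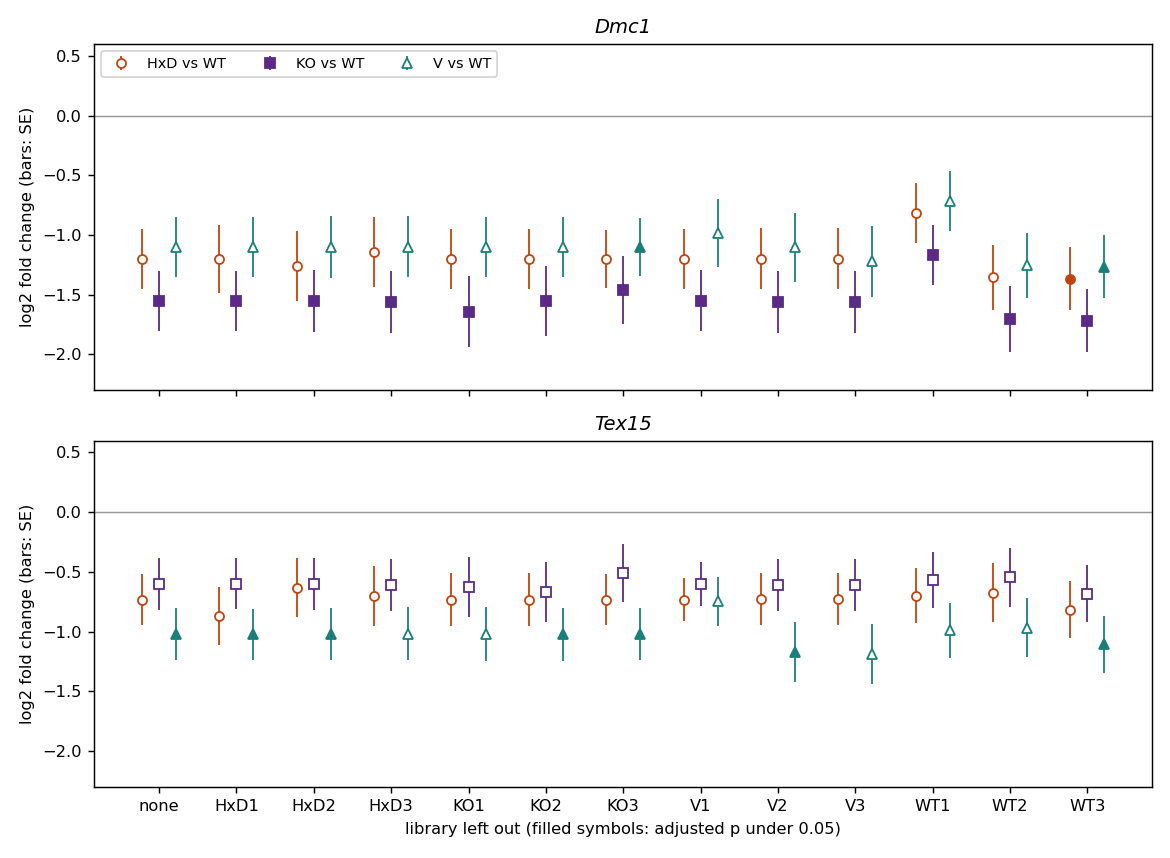
Log2 fold change of Dmc1 and Tex15 against WT with all libraries (none) and with each library left out in turn, with bars showing the standard error and filled symbols an adjusted p under 0.05 (edgeR). The KO symbols of Dmc1 are filled throughout and move up to -1.17 without WT1, and the V symbols of Tex15 are open without HxD3, KO1, V1, V3, WT1 or WT2.

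The mutant groups were also compared with each other, to ask whether loss of TET1 and loss or stalling of its catalysis differ in these genes. Of the 10 genes, 0 passed in any of the 3 comparisons with edgeR, DESeq2 or limma-voom, where edgeR called 0% of all genes. Over all genes, edgeR gave 514 unadjusted p-values under 0.05 for KO over HxD, 747 for V over KO and 326 for V over HxD, and DESeq2 called 27, 19 and 16 genes and limma-voom 0 in each. For Dmc1 the log2 difference was -0.35 (95% interval -0.86 to 0.16) for KO over HxD, 0.45 (-0.06 to 0.96) for V over KO and 0.10 (-0.41 to 0.61) for V over HxD. For Tex15 it was 0.13 (-0.31 to 0.57) for KO over HxD, -0.42 (-0.87 to 0.02) for V over KO and -0.29 (-0.73 to 0.15) for V over HxD. The intervals allow differences of up to these bounds. Only Msh4 in V over KO had an unadjusted edgeR p under 0.05 among the 10 genes in these comparisons (log2 difference 1.64 ± 0.63, edgeR, adjusted p = 0.945).

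Of 43 other genes of meiotic breaks and recombination, a list chosen by role with earlier results known, 0 passed in HxD, 2 were lower in KO, 0 passed in V and 3 were lower for the mean of the mutants, and none was higher. Lower calls over all 16166 genes numbered 4, 80, 14 and 103 in the same order. An unadjusted edgeR p under 0.05 was found for 9 of the 43 in HxD, 15 in KO, 9 in V and 14 for the mean of the mutants. Over all 16166 genes it was found for 1172, 2138, 1567 and 2129. DESeq2 called 1 of the 43 in HxD, 6 in KO, 0 in V and 5 for the mean of the mutants, limma-voom 1, 2, 0 and 8, and edgeR without a filter on low counts 2, 6, 1 and 7. Over all genes, DESeq2 called 63, 487, 149 and 454, limma-voom 15, 187, 20 and 346, and edgeR without a filter 71, 464, 176 and 429. The median log2 fold change of the 43 was -0.23 in HxD, -0.24 in KO, -0.20 in V and -0.25 for the mean of the mutants, nearer to 0 than that of the 10 genes. The 8 other genes grouped under break formation were Gm960, Rec114, Ccdc36, Prdm9, Zcwpw1, Hormad1, Hormad2 and Trip13, and the grouping does not mean that each makes breaks. By role, the median in KO was -0.997 for these 8, -0.05 for 20 genes of end processing and strand exchange, many of which also act in mitotic cells, and -0.43 for 15 genes of crossover formation. The same medians were -0.54, -0.02 and -0.42 in HxD, and -0.57, -0.17 and -0.48 in V.

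Tex11, an X-linked gene needed for crossovers and synapsis in male mice, had 25.6, 16.4 and 15.2 CPM in HxD, 32.0, 19.4 and 6.91 CPM in KO, 20.3, 25.9 and 35.5 CPM in V, and 88.9, 65.2 and 48.8 CPM in WT. Every mutant library was below every WT library, and Tex11 fell in KO (log2 fold change -1.80 ± 0.39, edgeR, adjusted p = 0.0182) and for the mean of the mutants (-1.64 ± 0.29, adjusted p = 0.00268). Zcwpw1, a reader of the histone marks that PRDM9 places at hotspots, fell in KO by 0.80 ± 0.19 on the log2 scale (edgeR, adjusted p = 0.0340). Ccdc36, also named Iho1, and Hormad1, both axis-bound factors that promote breaks, fell for the mean of the mutants, by 1.88 ± 0.43 and 0.91 ± 0.20 on the log2 scale (edgeR, adjusted p = 0.0234 and 0.0177). Without WT1 none of these calls was kept, with edgeR adjusted p of 0.133 for Tex11 and 0.175 for Zcwpw1 in KO, and of 0.0938 for Tex11, 0.456 for Ccdc36 and 0.488 for Hormad1 for the mean of the mutants, whose Hormad1 log2 fold change was then -0.51. The KO calls of Tex11 and Zcwpw1 were also lost without KO2, KO3 or WT2 (adjusted p between 0.0512 and 0.153), and the call of Ccdc36 for the mean of the mutants without WT2 (adjusted p = 0.105).

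**Figure D4:**
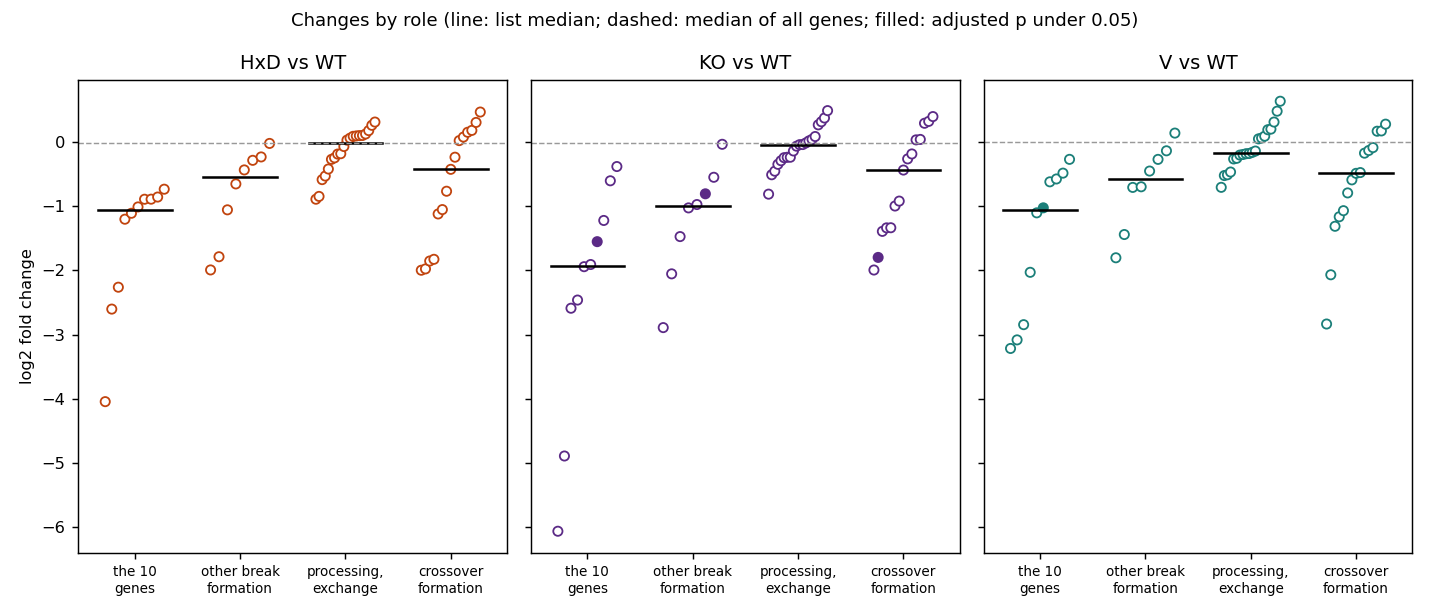
Log2 fold change against WT of the 10 genes and of 43 other genes of the pathway by role, 1 circle a gene, with a solid line at the median of each set, a dashed line at the median of all genes and filled circles for an adjusted p under 0.05 (edgeR). Genes of end processing and strand exchange lie around the dashed line, and those grouped under break formation and crossover formation reach further down in every mutant.

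The levels of the 10 genes were set beside those of genes of meiotic entry. Stra8, the transcription factor that starts the meiotic programme, had 169, 175 and 74.6 CPM in HxD, 73.9, 32.2 and 114 CPM in KO, 45.8, 177 and 145 CPM in V, and 977, 423 and 247 CPM in WT. It fell in KO (log2 fold change -2.90 ± 0.45, edgeR, adjusted p = 0.000907) and in V (-2.16 ± 0.43, adjusted p = 0.0338), and its value of -1.98 ± 0.43 in HxD did not pass (adjusted p = 0.0928). WT1 held the highest level of Stra8 as well as of Dmc1 and Spo11. Gm4969 (Meiosin), the partner of STRA8, and the axis and synapsis genes Rec8, Sycp1 and Sycp3 also fell in KO, by 2.95, 1.34, 2.13 and 2.08 on the log2 scale (edgeR, adjusted p = 0.000696, 0.00980, 0.00162 and 0.0177). Sycp1 fell in V too (log2 fold change -2.28 ± 0.35, edgeR, adjusted p = 0.00214), a call kept under 19 of 20 alternatives and lost without V1 (adjusted p = 0.0505), while Gm4969, Rec8 and Sycp3 in V had log2 fold changes of -1.84, -1.11 and -1.36 that did not pass (edgeR, adjusted p = 0.0636, 0.0699 and 0.234). In HxD the values of Gm4969, Rec8, Sycp1 and Sycp3 were -1.87, -0.81, -1.71 and -2.08, and none passed in the main fit (edgeR, adjusted p = 0.122, 0.435, 0.0592 and 0.0838). Of 20 alternatives in HxD, Sycp1 passed under 11, Stra8, Gm4969 and Sycp3 under 6 each, and Rec8 under 1. Of 20 in V, Gm4969 passed under 8, Rec8 under 5 and Sycp3 under 1. The Stra8 call in V was kept under 13 of 20 alternatives. It was lost without V1, V3, WT1 or WT2 (edgeR, adjusted p between 0.0670 and 0.334). With DESeq2 (adjusted p = 0.0751) and with a mean of at least 5 CPM (edgeR, adjusted p = 0.108) it did not pass either. The calls of Rec8 and Sycp3 in KO were lost without WT1 (edgeR, adjusted p = 0.0786 and 0.340) or KO2 (0.0598 and 0.0982), that of Sycp3 also without KO1 (0.0784). Without WT1 the KO log2 fold change was -1.15 for Sycp3, -1.09 for Rec8 and -2.19 for Stra8, and the KO calls of Gm4969 and Sycp3 were lost in the fit that dropped HxD1, KO1 and KO3 (edgeR, adjusted p = 0.0850 and 0.0699). Whether the lower level of the entry genes has a part in the differences of the 10 genes was not tested.

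**Figure D5:**
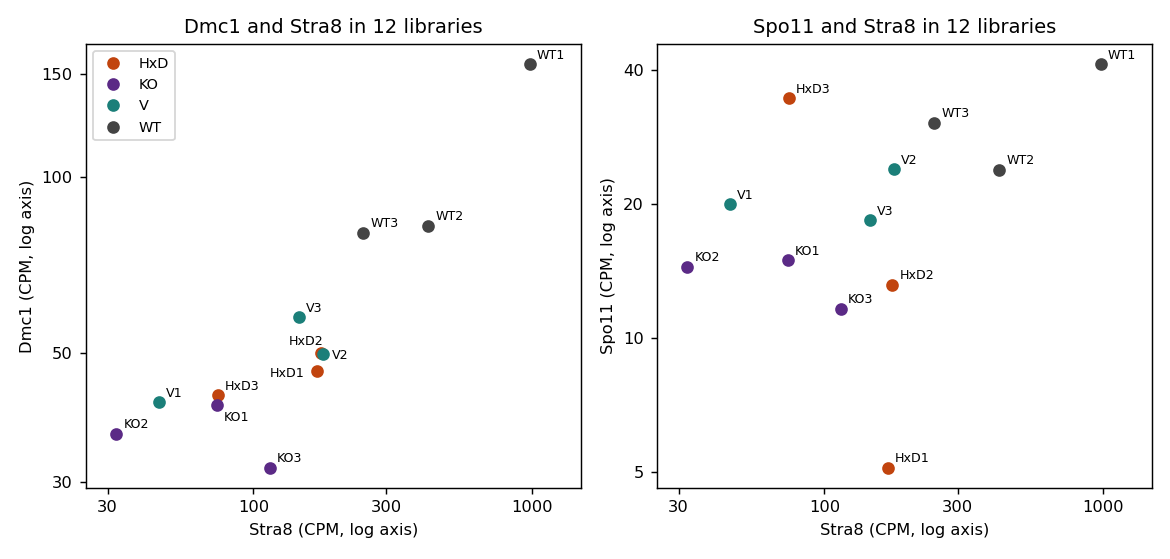
Level of Dmc1 (left) and Spo11 (right) against that of Stra8 in the 12 libraries, in CPM on log axes, coloured by group. The 3 WT libraries lie to the right of all mutant libraries, WT1 is the highest on both axes of both panels, and HxD3 has a Spo11 level of 34.6 CPM at a Stra8 level of 74.6 CPM.

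Across the 12 libraries the gene closest to the mean profile of the other 9 was Dmc1, with a root mean square difference of 0.39 on the log2 scale, and the most distant was Meiob at 1.25. Outside the set, among 10395 genes averaging 5 CPM or more, the 5 with the nearest profile to the mean of the 10 were Dbn1 (0.29), Nkd1 (0.29), Fgf11 (0.32), Gm7972 (0.36) and Gpat2 (0.39). These distances describe 12 libraries in 4 groups and carry no test.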

How the data were processed

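The authors deposited whole-number counts per gene, not normalized, for 12 libraries. The tools that made them are, per the submitters' processing notes, featureCounts 2.0.3, STAR 2.7.10b, Trim Galore 0.6.7, SAMtools 1.9 and FastQC. The builds GRCm39 and mm10 are listed there with no role. Neither annotation nor strand setting is given in the sources used here, nor the handling of multimapping reads, so reads of a gene and an antisense or overlapping partner cannot be told apart. Per the labels' protocols, mRNA was selected with oligo d(T) beads, and no molecular identifiers are described, so reads are not independent molecules.

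Counts were tested with edgeR 4.0.16 in R 4.3.3 (two-sided quasi-likelihood F test, TMM normalization, default filterByExpr with a minimum count of 10), in 1 joint fit of the 12 libraries by group alone, and p-values were adjusted by Benjamini-Hochberg over 16166 genes and called under 0.05. The mean of the mutants is the average of the 3 mutant log2 fold changes. Standard errors are the log2 fold change divided by the square root of F. DESeq2 1.42.0, limma-voom (limma 3.58.1), other size factors and filters, fits of only the groups compared, a replicate block and left-out libraries were alternatives. The code was tested on simulated data. Total counts of 18471158 to 29495313 put 3 counts, the floor used for a count of 0, at 0.0996 to 0.168 CPM.

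The 10 genes, the lists and the tests were chosen with earlier results of these data known. Named besides the 10 genes were up to 5 called genes of the list of 43 in each comparison with WT. Tet1, 5 genes of meiotic entry and the 5 nearest profiles were named too. The 6 germ-cell markers were named after their values were seen. Exon lengths came from GENCODE M21 and promoters from RefSeq (GRCm38.p6), by symbol, and neither need be the annotation the authors used.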

Additional observations from a re-analysis of the deposited data

How the results depend on the processing

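Of 778 values of the 10 genes in the comparisons with WT under alternatives, 737 kept their direction and their side of the threshold, 27 came to pass it, 13 no longer passed it and 1 turned its sign, Msh4 in V without V1 (0.10, in a range of -0.92 to 0.10 over left-out libraries). Tet1 for the mean of the mutants turned to -0.11 without WT1 (range -0.11 to 0.44) and Dmc1 in V over HxD to -0.023 without V3 (range -0.023 to 0.22). The cause was not tested.

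The number of the 10 genes called in HxD was 0, and 1 with DESeq2, 2 without a filter and 1 with a replicate block. In KO it was 1, and 4 with DESeq2, 3 with limma-voom, 2 with only the groups compared and 0 when HxD1, KO1 and KO3 were left out. In V it was 1, and 2 with DESeq2 size factors, with DESeq2, without a filter and with a replicate block, and 0 with a mean of at least 5 CPM, with only the groups compared and with the 3 libraries left out. For the mean of the mutants it was 2, and 4 with DESeq2, limma-voom and no filter. With each library left out in turn the counts were 0 to 1 in HxD, 1 to 2 in KO, 0 to 2 in V and 0 to 4 for the mean of the mutants, and 0 between mutants.

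Over all genes, HxD had 5 calls, and 63 with DESeq2, 15 with limma-voom, 71 without a filter, 1 with a mean of at least 5 CPM, 22 with a replicate block and 20 with only the groups compared. KO had 197, and 487 with DESeq2, 464 without a filter and 30 with the 3 libraries left out. V had 25, and 149 with DESeq2, 176 without a filter, 5 with a mean of at least 5 CPM, 73 with a replicate block and 16 with the 3 libraries left out. The mean of the mutants had 198, and 454 with DESeq2, 346 with limma-voom and 429 without a filter. KO over HxD had 0, and 1 with DESeq2 size factors, 27 with DESeq2, 10 without a filter, 2 with a replicate block and 1 with only the groups compared. V over KO had 0, and 19 with DESeq2, 5 without a filter, 1 with a replicate block and 1 with only the groups compared. V over HxD had 0, and 16 with DESeq2 and 1 without a filter. With each library left out these counts were 1 to 35 in HxD, 31 to 357 in KO, 2 to 110 in V, 29 to 313 for the mean of the mutants, 0 to 3 for KO over HxD and V over KO, and 0 to 1 for V over HxD. Fewer genes were tested with a mean of at least 5 CPM, which left out Mei1, Meiob and Spata22, and fewer libraries entered the fits that left some out; the cause of the other differences was not tested.

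The groups share replicate numbers, and the labels do not say that equal numbers share a litter or day. Deviations of same-numbered libraries correlated between -0.17 and 0.13 in 18 pairs, 1 of them over 0.1. Those of libraries with other numbers correlated between -0.19 and 0.17 in 36 pairs, 5 of them over 0.1. With 3 libraries a group these values cannot exclude a pairing, so the replicate block was kept as an alternative only. The calls it added among the 10 genes were Dmc1 in HxD and V (edgeR, adjusted p = 0.0421 and 0.0445) and Spata22 for the mean of the mutants. It kept those of Dmc1 in KO, Tex15 in V and both for the mean of the mutants. With DESeq2 size factors in edgeR, KO had 90 higher and 95 lower genes in place of 117 and 80, V 10 and 22 in place of 11 and 14, and the mean of the mutants 81 and 127 in place of 95 and 103, while no fold change of the 10 genes turned its sign. The fold changes of Mei1, Meiob, Spata22 and Ankrd31 had standard errors of over 1 in every comparison of 1 mutant with WT. Their counts were low, and their fitted spread between libraries was the largest of the 10 genes. The part of each in these standard errors was not tested. Dixon's test for outliers was not made, since the rule set for it asked for at least 4 samples a group.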
